A study of Mus musculus with 8 samples.

Results

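H3K27ac-only regions are stretches of the genome with a peak of acetylated histone H3 lysine 27 and no peak of the other targets mapped in the same cells. They were chosen by merging overlapping or touching H3K27ac peaks of both arms and keeping each merged region that shared not even 1 bp with a FLAG, BRG1 or H3K4me1 peak of either arm. This left 2006 of 49539 H3K27ac regions, 4.05% (95% interval 3.88 to 4.23). Of these, 949 had their H3K27ac peak in NanogWT only, 793 in NanogBiD only and 264 in both arms, which are called common. The choice rests on measured peaks, so the absence of other targets is part of the definition.

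The peaks come from CUT&Tag, in which an antibody tethers a transposase to its target so that the DNA nearby is tagged for sequencing. The cells were mouse embryonic fibroblasts (MEFs) at day 5 of reprogramming. In the arm labelled Nanog+Oct4 (NanogWT here) they received wild-type Nanog and Oct4, and in the arm labelled NanogN70+Oct4 they received Oct4 and Nanog fused to the part of SS18 that binds BRG1, the fusion which the study calls NanogBiD. Each arm had 1 library for FLAG-tagged NANOG, 1 for BRG1 (Smarca4), 1 for H3K27ac and 1 for H3K4me1, 8 in all. Both arms thus carry exogenous Oct4 and a FLAG-tagged NANOG, delivered by retrovirus, and no arm without these factors was analysed here. The study's methods describe its MEFs as cells of female or male embryos that carry an Oct4-GFP reporter. A library holds all cells of the culture, so a weak peak in all cells and a strong peak in few cannot be told apart. Replicates were merged by the authors before peaks were called, which leaves 1 list per group and no spread between cultures against which to set a difference between arms.

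The peak lists held between 30859 (BRG1, NanogWT) and 74782 peaks (FLAG, NanogBiD), with 35452 H3K27ac peaks in NanogWT and 42598 in NanogBiD. The number of sequenced tags is unknown. The height of a summit is the number of tags piled up there, and peaks are scored by the significance that the peak caller assigns, with 50 as the lowest score in every list. At genes of the fibroblast (mesenchymal) list, 28 of 30 had an H3K27ac region within 2 kb of a start site, against 14 of 32 pluripotency genes, 7 of 18 epithelial genes and 13449 of all 21992 protein-coding genes (61.2%). Shares as high as the mesenchymal one were also found for ribosomal protein genes, 80 of 83, BAF subunit genes, 16 of 17, and AP-1 and immediate early genes, 13 of 14. Intervals throughout cover counting error only, and neighbouring regions are not independent of each other.

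H3K27ac is laid down by the acetyltransferases p300 and CBP, and marks active promoters and active enhancers. H3K4me1 is found at enhancers and on the flanks of active promoters, while the start sites of active genes carry trimethylated H3K4, which was not mapped. BRG1 is an ATPase of the BAF complex, which slides and evicts nucleosomes, and NANOG is a homeodomain factor of pluripotent cells. Acetylated enhancers commonly carry H3K4me1 and remodellers as well.

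The windows shown here are 100 bp either side of the highest summit of H3K27ac-only regions that stood out in height (Map7d1, Dnlz, Gm43907, Hook2 and Arid5b) or in score (Tceal1, Dpp6 and 1700041C23Rik) within their class. They are named after the nearest start site and follow the mm10 build. Capitals mark exact matches, on either strand, to the motifs searched: TGANTCA (AP-1), ATGCAAAT (OCT), ACAAAG (SOX), GGAATG (TEAD), TGTGGTT (RUNX), CCGGAAG (ETS), GGGCGG (SP/KLF), CCAAT (NFY), TGACGTCA (CRE), CACGTG (E-box), 6 CA units in a row (CA repeat), and the NRF1 and CTCF consensus sequences by name.
Map7d1, common, chr4:126256350-126256550, plus strand: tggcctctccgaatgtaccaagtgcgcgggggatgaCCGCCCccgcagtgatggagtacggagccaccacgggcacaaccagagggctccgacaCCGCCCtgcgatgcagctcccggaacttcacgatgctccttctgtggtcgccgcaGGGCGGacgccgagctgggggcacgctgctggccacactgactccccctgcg
Dnlz, common, chr2:26351642-26351842, plus strand: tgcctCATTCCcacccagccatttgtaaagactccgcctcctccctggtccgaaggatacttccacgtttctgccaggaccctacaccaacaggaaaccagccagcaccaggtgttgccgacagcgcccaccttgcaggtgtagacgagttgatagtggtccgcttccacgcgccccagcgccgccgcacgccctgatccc
Gm43907, common, chr6:128760904-128761104, plus strand: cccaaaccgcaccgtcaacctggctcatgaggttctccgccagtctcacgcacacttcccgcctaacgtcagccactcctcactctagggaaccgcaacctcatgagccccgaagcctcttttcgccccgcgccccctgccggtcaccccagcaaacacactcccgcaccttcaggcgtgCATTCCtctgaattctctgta
Tceal1, common, chrX:136708518-136708718, plus strand: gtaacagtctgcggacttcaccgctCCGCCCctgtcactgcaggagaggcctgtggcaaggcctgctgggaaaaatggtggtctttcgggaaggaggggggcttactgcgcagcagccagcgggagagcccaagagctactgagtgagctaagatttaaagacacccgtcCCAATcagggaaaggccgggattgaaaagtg
Hook2, NanogWT only, chr8:84985687-84985887, plus strand: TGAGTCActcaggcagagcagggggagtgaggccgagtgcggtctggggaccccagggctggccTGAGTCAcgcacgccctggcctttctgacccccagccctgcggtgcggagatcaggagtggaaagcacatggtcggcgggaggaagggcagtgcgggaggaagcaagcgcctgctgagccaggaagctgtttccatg
Dpp6, NanogWT only, chr5:26753885-26754085, plus strand: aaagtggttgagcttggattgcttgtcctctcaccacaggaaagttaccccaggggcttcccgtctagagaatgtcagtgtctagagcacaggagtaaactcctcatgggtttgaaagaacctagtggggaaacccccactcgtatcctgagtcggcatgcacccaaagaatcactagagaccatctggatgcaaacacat
Arid5b, NanogBiD only, chr10:68145624-68145824, plus strand: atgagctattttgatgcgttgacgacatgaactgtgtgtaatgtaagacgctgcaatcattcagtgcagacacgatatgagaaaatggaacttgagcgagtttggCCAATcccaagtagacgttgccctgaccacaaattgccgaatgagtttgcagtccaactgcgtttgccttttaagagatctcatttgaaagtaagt
1700041C23Rik, NanogBiD only, chr9:57203576-57203776, plus strand: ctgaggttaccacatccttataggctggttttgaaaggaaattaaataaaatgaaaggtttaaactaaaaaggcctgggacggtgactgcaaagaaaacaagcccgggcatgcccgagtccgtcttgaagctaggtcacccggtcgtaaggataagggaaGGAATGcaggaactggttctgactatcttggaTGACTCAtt
The common Map7d1 window held 3 SP/KLF matches and had a GC content of 68.7%, and the Hook2 window held 2 AP-1 matches. No capital stands in the Dpp6 window, which says only that none of these letters occurs there. Windows of higher regions that overlap an annotated UTR are not shown.

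Regions marked in a single arm made up most of the H3K27ac-only set. NanogWT only regions were 47.3% of the set (45.1 to 49.5), against 14.6% of all H3K27ac regions. NanogBiD only regions were 39.5% (37.4 to 41.7), against 29.1% of all, and common regions 13.2% (11.8 to 14.7), against 56.4%. Seen from the other side, 13.1% of all NanogWT only regions, 5.51% of NanogBiD only regions and 0.946% of common regions had no other target. The order of the arm-specific classes, with NanogWT ahead, is thus the opposite of that among all H3K27ac regions, where NanogBiD only regions were the more numerous. This order depends on counting peaks of either arm as partners. When a partner counted only in the arm where the H3K27ac peak lay, 1344 NanogBiD only and 1179 NanogWT only regions were left, 48.2% and 42.3% of 2787. With the 30000 highest-scoring H3K27ac peaks of each arm the shares were 13.3% for NanogBiD only and 71.6% for NanogWT only, of 662 regions. Among all 37331 regions of this setting, with lists of equal length, the classes were nearly equal, at 19.99% for NanogBiD only and 19.8% for NanogWT only.

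Counted by peaks within each arm, 1889 of 35452 H3K27ac peaks of NanogWT (5.33%) and 2380 of 42598 of NanogBiD (5.59%) overlapped no other target of their own arm. Fewer of these were also free of partners in the opposite arm, 1246 (3.51%) in NanogWT and 1084 (2.54%) in NanogBiD. Partners in the opposite arm thus removed a greater part of the NanogBiD peaks than of the NanogWT peaks.

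**Figure D1:**
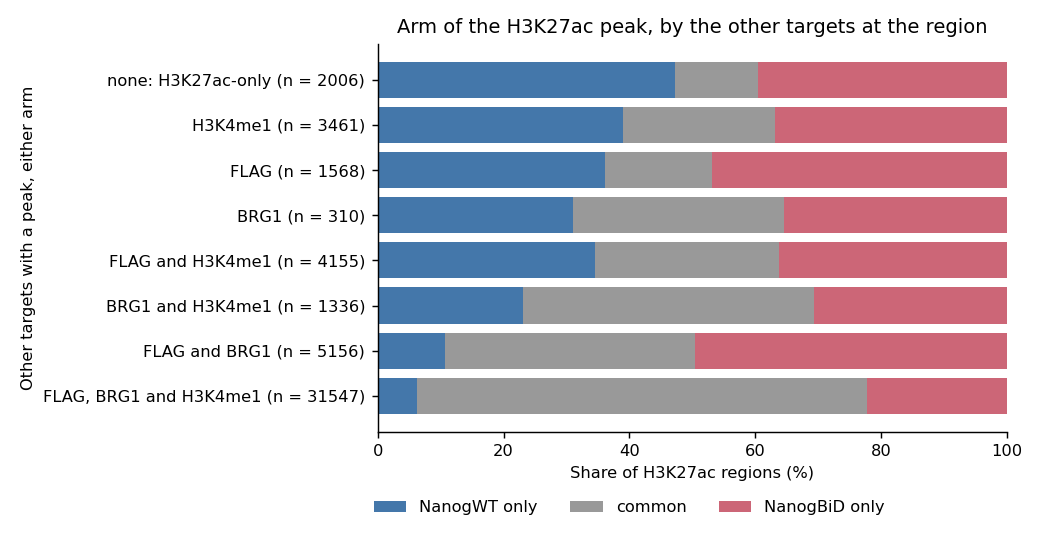
Share of H3K27ac regions (%, horizontal axis) with the H3K27ac peak in NanogWT only, in both arms or in NanogBiD only, by which other targets had a peak at the region in either arm (rows, with the number of regions). H3K27ac-only regions, the top row, have 47.3% NanogWT only and 13.2% common regions, while regions with FLAG, BRG1 and H3K4me1 have 6.24% and 71.5%.

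The share of regions marked in NanogWT only varied with the targets present, from 6.24% (5.98 to 6.51) of the 31547 regions that held FLAG, BRG1 and H3K4me1 to 47.3% of those that held none. In both arm-specific shares the nearest combination was that of the 3461 regions with H3K4me1 and neither FLAG nor BRG1, of which 38.9% were NanogWT only, 36.9% NanogBiD only and 24.1% common. Regions with FLAG alone, 1568 in number, came nearer in their common share, 17.0% (15.2 to 18.9), with 36.2% NanogWT only and 46.9% NanogBiD only. Against the regions with H3K4me1, the H3K27ac-only set had 8.36 percentage points more NanogWT only regions (5.64 to 11.1) while for common regions the difference was -10.97 points (-12.99 to -8.88), and the NanogBiD only share differed by 2.61 points with an interval that includes 0 (-0.06 to 5.29).

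H3K27ac-only regions were weak. Heights ranged from 7 to 38 tags in NanogWT only regions and from 7 to 30 in NanogBiD only regions, with a median of 11 in each, against medians of 12 and 12 in the other H3K27ac regions of the same classes. Common regions reached from 9 to 65 tags at their higher summit with a median of 15, against 21 among the others. Scores lay near the lower limit of the lists: the median was 60.3 in NanogWT only, 57.7 in NanogBiD only and 92.8 in common regions, against 70.5, 75.4 and 189 elsewhere. A score under 60 was found in 460 of 793 NanogBiD only regions (58.0%), 462 of 949 NanogWT only regions (48.7%) and 30 of 264 common regions (11.4%). Scores of at least 100 were reached by 180 of the 2006 regions (8.97%), 115 of them common. The regions were also narrow, with median widths of 719 bp (NanogWT only), 639 bp (NanogBiD only) and 1198 bp (common), against 825.5, 783 and 1656 bp. A wider region is more likely to touch a partner, so the rule itself favours narrow regions. Common regions were the widest, and the class shares were not set out by width. The regions with H3K4me1 and neither FLAG nor BRG1 were nearly as weak and narrow. Their median heights were 11 tags in NanogWT only and NanogBiD only and 14 in common regions, with median scores of 63.3, 63.5 and 99.7 and median widths of 747, 708 and 1159 bp.

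Because heights differed between the sets, the share of H3K27ac-only regions was set out by height. It fell from the lowest to the highest heights in each class. Among NanogWT only regions it was 15.7% (14.3 to 17.2) at 10 tags or fewer and 6.21% (3.96 to 9.60) over 20 tags. In NanogBiD only regions it went from 9.11% (8.24 to 10.1) to 1.72% (0.910 to 3.24), and in common regions from 5.30% (3.67 to 7.61) to 0.339% (0.256 to 0.447). At every height the share was greatest in NanogWT only regions and smallest in common regions, although over 20 tags the intervals of the arm-specific classes were wide, with 18 and 9 H3K27ac-only regions.

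**Figure D2:**
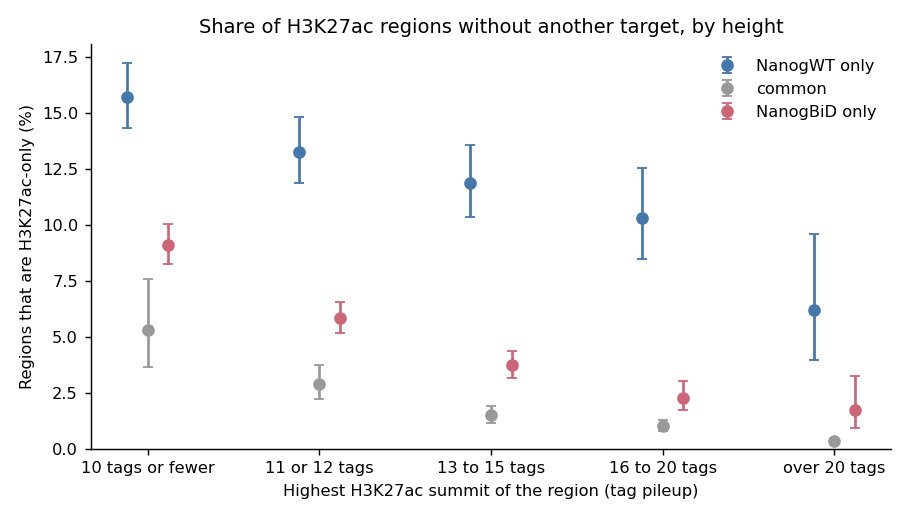
Share of H3K27ac regions that are H3K27ac-only (%, vertical axis) by the highest summit of the region in tags (horizontal axis) and by class, with 95% Wilson intervals as bars. All 3 classes fall with height, NanogWT only from 15.7% to 6.21%, NanogBiD only from 9.11% to 1.72% and common from 5.30% to 0.339%.

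Scores were low even for a given height. Among common regions of over 20 tags, the median score was 138 in the 49 H3K27ac-only regions and 284 in the 14417 others. At 16 to 20 tags the medians were 102 and 159 in common regions, 70.4 and 86.0 in NanogWT only, and 59.6 and 103 in NanogBiD only regions. The H3K27ac-only median was the lower of the pair in all 5 height ranges of all 3 classes. Most of the gap in common regions of over 20 tags was shared by regions with H3K4me1 and neither FLAG nor BRG1, whose median there was 146 (97 regions). At 16 to 20 tags these had medians of 132 in common, 73.9 in NanogWT only and 74.8 in NanogBiD only regions, between the H3K27ac-only values and those of all others. The score weighs the tags of a peak against those around it, and the tag density around these peaks was not measured here.

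**Figure D3:**
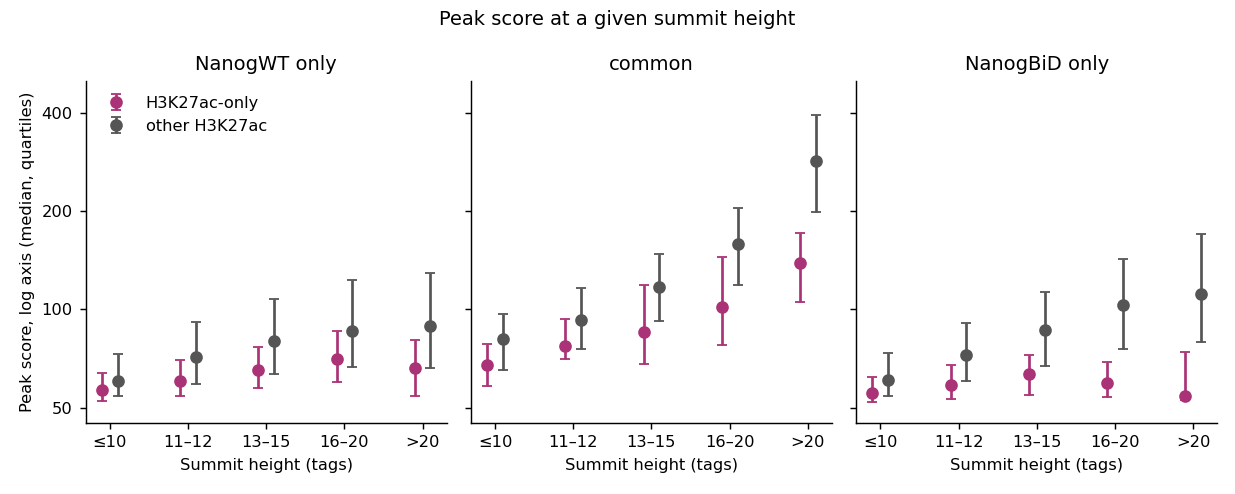
Median peak score (log axis, bars from the lower to the upper quartile) by summit height in tags, for H3K27ac-only and other H3K27ac regions in each class. The H3K27ac-only points lie below the others throughout, for example at 138 against 284 in common regions of over 20 tags.

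The regions with the greatest heights show this pattern. The highest common region, of 4743 bp over the start site of Map7d1, a gene of a microtubule-binding family, had 65 tags in NanogWT and 54 in NanogBiD, with scores of 121.6 and 55.2. Its nearest partner was a FLAG peak of NanogBiD 758 bp away. Dnlz, whose product assists a mitochondrial chaperone, had 28 tags in each arm and scores of 138 and 121, and its nearest partner lay 7.61 kb away. At Zkscan14, a zinc finger gene, there were 28 and 27 tags with scores of 121 and 65.5. An intergenic region whose nearest start site, that of the pseudogene Gm43907, lay 15.2 kb away had 28 tags in NanogWT and 31 in NanogBiD, and it was the only one of these 4 outside a promoter.

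In the NanogWT only class the highest was Emp3, which encodes a membrane protein, with 38 tags and a score of 53.4. Next came a region 3.87 kb from Hook2, with 37 tags and a score of 73.9, and this region also lay within 20 kb of Junb, an AP-1 gene. Fkbpl had 32 tags and a score of 79.5, and Chd2, a chromatin remodeller, 28 tags and 50.1. All 4 had a peak of another target within 1.26 kb, the closest being a BRG1 peak 277 bp from the Emp3 region.

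The highest NanogBiD only region covered the start site of Gpi1, a glycolytic enzyme, with 30 tags and a score of 54.2. An intronic region of Arid5b, which encodes a DNA-binding protein, had 25 tags and a score of 74.0, and lay 5.63 kb from any partner. Nudt14 and 2700062C07Rik had 24 tags each, with scores of 60.4 and 52.9. Because their opposite arm has no peak in the list, the tags at these sites in that arm are unknown.

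Other protein-coding start sites inside high H3K27ac-only regions belonged to genes of varied roles. In NanogWT only they were Plec, which links cytoskeletal filaments, with 22 tags, and Tmem223, with 22 tags. Common regions covered Lpin1, a phosphatidate phosphatase, at 25 tags in NanogWT and 34 in NanogBiD, the splicing factor gene Aar2 at 29 and 21, and the bHLH factor gene Tcf4 at 21 and 29. In NanogBiD only regions they were Bcl9l, a coactivator of Wnt signalling, and Pcgf2, a Polycomb subunit, with 23 tags each. The Lpin1 region lay 33 bp from a BRG1 peak, while the Aar2 region lay 5.61 kb from any partner.

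The highest scores, looked up after the values had been seen, belonged mostly to regions not yet described. Tceal1, an X-linked gene of a family related to an elongation factor, led with scores of 470 in NanogWT and 299 in NanogBiD at heights of 26 and 17 tags, and lay 26.6 kb from any partner. Pggt1b, a prenyltransferase subunit, scored 362 and 360 at 20 tags in each arm. Rtl8c scored 101 and 312. Next came an intergenic region of chromosome 11, 6.44 kb from the start site of the antisense gene Gm20234, with 309 and 135. Aar2, described above, followed with 283 and 262, and then Chm, which escorts Rab proteins to prenylation, with 174 and 282. Of these 6 regions, 3 lay on the X chromosome. In arm-specific regions the highest scores were 169 in NanogWT only, 62.3 kb from the start site of Dpp6, and 146.8 in NanogBiD only, 27.6 kb from that of 1700041C23Rik.

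Common H3K27ac-only regions had like heights in both arms. In NanogWT heights ran from 7 to 65 tags with a median of 14, and in NanogBiD from 8 to 54 with a median of 14. The height was greater in NanogBiD at 122 regions, lower at 102 and equal at 40, and the median log2 ratio of NanogBiD over NanogWT was 0.00 (lowest -0.86, highest 0.83). No region differed by 2-fold in either direction, 0 of 264. The lowest height in either arm was 7 tags, so that such a difference needs at least 14 tags in the higher arm, which 98 of the 264 regions (37.1%) did not have, against 12.8% of the other common regions. Of the 166 that did, 0 differed by 2-fold, which allows a share of up to 1.81%, against 2.14% of the 24111 others. These were not of like height, since 49 of the 166 exceeded 20 tags, against 14417 of the 24111. A region near 14 tags has little room for such a difference, so no contrast is drawn from these shares. The regions with H3K4me1 and neither FLAG nor BRG1 were much alike, with a median log2 ratio of 0.00, 39.9% below 14 tags, and 3 of the 502 that could reach it at 2-fold (0.598%). Over all common H3K27ac regions, 1.46% were at least 2-fold higher and 0.39% at least 2-fold lower in NanogBiD. The median ratio of the 27657 other common regions was 0.08. Heights are not scaled to depth, so these ratios are relative to the libraries.

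Some arm-specific regions lay beside an H3K27ac peak of the opposite arm. Of 948 NanogWT only regions for which a distance could be taken, 112 (11.8%, 9.91 to 14.02) had an H3K27ac peak of NanogBiD within 1 kb, against 7.57% (6.94 to 8.25) of the other NanogWT only regions. For NanogBiD only regions the share with a NanogWT peak within 1 kb was 6.05% (4.60 to 7.93), against 4.73% (4.38 to 5.10), with overlapping intervals.

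Many H3K27ac-only regions lay close to a partner without touching it. The median distance to the nearest peak of another target was 3.02 kb in NanogWT only, 3.68 kb in NanogBiD only and 2.62 kb in common regions. Within 500 bp of a partner were 355 of 2005 regions (17.7%), within 1 kb 532 (26.5%) and within 5 kb 1281 (63.9%), while 121 (6.03%) lay over 20 kb away. The nearest partner was an H3K4me1 peak for 882 regions (44.0%), a FLAG peak for 869 (43.3%) and a BRG1 peak for 255 (12.7%). The BRG1 lists were the shortest, with 30859 peaks in NanogWT and 53748 in NanogBiD. FLAG had 58940 and 74782, and H3K4me1 had 72242 and 57156. No distance expected by list length was worked out. On both sides of the rule's limit the regions were much alike. The 84 regions just inside, with a gap of up to 100 bp, had a median height of 12 tags, a median score of 59.5 and 54.8% in NanogWT only. The 39 regions just outside, with an overlap of up to 100 bp, had 12 tags, 62.7 and 46.2%.

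The members were scattered through the genome. Joined across 12.5 kb, 2003 regions on the assembled chromosomes formed 1939 runs, of which 1879 held 1 region, 57 held 2 and 3 held more. The longest run, of 4 regions, lay within Zeb2, which encodes a repressor of epithelial genes, at chr2:45019481-45034468. It had 2 NanogWT only and 2 NanogBiD only regions, all intronic, with heights from 9 to 14 tags.

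By position, 537 of 2006 H3K27ac-only regions (26.8%, 24.9 to 28.8) lay at promoters, within 2 kb of a start site, 750 (37.4%) in introns, 549 (27.4%) between genes and 170 (8.47%) in exons. Among the other H3K27ac regions 37.2% (36.7 to 37.6) were at promoters. The classes differ in this, so they were compared one by one. Common regions were at promoters in 51.9% of cases (45.9 to 57.9), against 50.2% of other common regions, a difference of 1.65 points with an interval from -4.39 to 7.64. NanogBiD only regions were at promoters in 24.1% (21.2 to 27.2), against 18.96% of the others, 5.13 points more (2.20 to 8.29). For NanogWT only regions the values were 22.0% (19.5 to 24.8) and 18.99%, 3.03 points more (0.33 to 5.94). The lower figure for the whole set went with its small share of common regions. In the regions with H3K4me1 and neither FLAG nor BRG1, 34.98% (32.4 to 37.6) of NanogBiD only regions were at promoters. Of their NanogWT only regions 24.7% (22.5 to 27.1) were, and of their common regions 52.8%. A raised promoter share in arm-specific regions was thus not particular to the H3K27ac-only set.

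The classes were also compared at a given height. At 13 to 15 tags 46.8% of common regions were at promoters (34.9 to 59.0), against 28.1% (26.8 to 29.5) of the other common regions, and at 16 to 20 tags 59.2% (47.5 to 69.8), against 36.5% (35.4 to 37.7). Over 20 tags the shares were 71.4% (57.6 to 82.2) and 66.9% (66.1 to 67.7), at 10 tags or fewer 37.0% and 24.1%, and at 11 or 12 tags 38.2% and 26.4%, and in these 3 ranges the interval of the difference included 0. In NanogBiD only regions the H3K27ac-only share was the greater in all 5 ranges, with an interval that left out 0 at 10 tags or fewer (0.126 to 9.02 points), at 13 to 15 tags (4.29 to 19.6) and over 20 tags, where there were 9 regions (0.861 to 55.8). In NanogWT only regions the interval left out 0 at 11 or 12 tags (0.043 to 10.4 points) and at 13 to 15 tags (1.03 to 14.2). At 16 to 20 tags the H3K27ac-only share was the lower there, 16.7% against 22.3%, a difference of -5.61 points with an interval from -12.6 to 3.83. Among the 183 regions left with an H3K27ac score of at least 100, promoters made up 51.4% over all classes.

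Over all classes, the genes assigned to these promoters included more noncoding ones. Where several start sites lay inside a region, a protein-coding one was taken first. A protein-coding start site lay inside 9.87% of H3K27ac-only and 26.4% of other H3K27ac regions, so this preference did not act alike on both sets. Of 537 promoter regions, the nearest start site was that of a protein-coding gene in 371 (69.1%, 65.1 to 72.8), against 83.9% of other H3K27ac promoter regions, a difference of -14.8 points (-18.85 to -10.98). This pools the classes, and common regions were 137 of the 537, against 13895 of the 17665 others. A protein-coding start site lay within 2 kb at 114 of 137 common promoter regions, against 12371 of 13895 others. In NanogWT only these were 138 of 209 against 851 of 1191, and in NanogBiD only 128 of 191 against 1762 of 2579. The shares that follow are of all 537 and were not split by class. Small nucleolar RNA genes were nearest at 12 (2.23%), against 0.504%, microRNA genes at 13 (2.42%), against 0.810%, and processed pseudogenes at 28 (5.21%), against 2.65%. The share of lincRNA genes was 7.08% (5.20 to 9.56), against 5.36%, with an interval that includes the latter.

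The genes of the lists tied to reprogramming were looked up at H3K27ac-only regions. Over all 21992 protein-coding genes, 394 (1.79%) had such a region within 2 kb of a start site, and 2.93% of the 13449 that had any H3K27ac region there. No gene did among the 32 pluripotency genes, the 16 germ layer genes, the 14 AP-1 and immediate early genes, the 17 BAF subunit genes or the 83 ribosomal protein genes. The mesenchymal list had 2 of 30, Zeb2 and Loxl1, and the epithelial list 1 of 18, Esrp2. These counts are too small to be read against the background share.

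At the Zeb2 start site a common region had 19 tags in NanogWT and 25 in NanogBiD, with scores of 147.0 and 124.6, and 1.001 kb separated it from the nearest partner. Together with the intronic run this gave Zeb2 5 H3K27ac-only regions, the most of any gene of the mesenchymal list. Loxl1, an enzyme that crosslinks elastin, had a NanogWT only region of 21 tags and a score of 53.5, 1.51 kb from its start site. Esrp2, an epithelial splicing regulator, had a common region of 23 and 21 tags with scores of 144 and 77.2. Within the gene body and 20 kb either side, the mesenchymal list also held 3 regions at Col5a1, which encodes a fibrillar collagen chain, of 16 to 19 tags in NanogWT, and a NanogBiD only region of 13 tags near Acta2, at the start site of its neighbour Stambpl1. Counted in this way 4 of 30 mesenchymal genes held an H3K27ac-only region (13.3%), against 9.29% of all protein-coding genes.

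For the other lists the same count gave 3 of 17 BAF subunit genes, 2 of 14 AP-1 and immediate early genes, 2 of 18 epithelial genes and 5 of 83 ribosomal protein genes, and 0 of 32 pluripotency and 0 of 16 germ layer genes. Arid1b, which encodes a DNA-binding BAF subunit, held a NanogWT only and a NanogBiD only region in its introns, each of 14 tags. Bcl7a and Smarcd1, subunits of the same complex, had NanogWT only regions of 8 and 12 tags nearby. Fos had a NanogWT only region of 11 tags 21.3 kb from its start site, and the tight junction gene Tjp1 a NanogWT only region of 10 tags in an intron.

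Hox genes pattern the body axis and lie in clusters. Of 39 Hox genes, 4 had an H3K27ac-only region within 2 kb of a start site, 10.3%, from 3 regions, or 4 of the 25 with any H3K27ac region there, against 1.79% of all protein-coding genes and 2.93% of those with any. Within the wider loci 15 of 39 (38.5%) held one, from 4 regions, against 9.29%. A NanogBiD only region of 18 tags covered the start site of Hoxa10, another of 12 tags lay 0.112 kb from that of Hoxa4, and a NanogWT only region of 14 tags lay at both Hoxd3 and Hoxd4. Neighbouring Hox genes thus share a region and are not separate observations.

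Zinc finger genes named Zfp, many of which encode KRAB repressors of retroelements, had 10 of 394 with a start-site region (2.54%), or 3.02% of those with any H3K27ac region there, near the 1.79% and 2.93% of all protein-coding genes. Of these, Zfp934 and Zfp935 shared a common region of 17 and 15 tags that lay 64.9 kb from any partner, and Zfp141 had a common region of 18 tags in each arm with scores of 230 and 166. The others with common regions were Zfp618 (14 and 16 tags), Zfp35 (17 and 16), Zfp65 (12 and 14) and Zfp106 (10 in each arm). Zfp72, Zfp800 and Zfp947 had NanogBiD only regions of 11, 11 and 12 tags. Within the wider loci, 27 H3K27ac-only regions lay at Zfp genes, of which 3 were NanogWT only, 9 common and 15 NanogBiD only, against 730, 222 and 593 of the 1545 at loci of all protein-coding genes.

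Olfactory receptor genes, which are silent in most tissues, and histone genes were also counted. Of 1134 olfactory receptor genes 14 had any H3K27ac region at a start site, and 2 had an H3K27ac-only region there. This is 0.176% of the receptor genes, against 1.79% of all protein-coding genes, and 14.3% of those with any H3K27ac region, against 2.93%, from 2 genes. The common region at Olfr1033 had 18 tags in NanogWT and 16 in NanogBiD, with scores of 197 and 160.0, and was 335 kb from the nearest peak of another target. That at Olfr56 covers the start site of the interferon-induced gene Ifi47 as well. Of 67 replication-dependent histone genes, 2 (2.99%) had one at a start site, Hist1h2ap and Hist1h4n, which shared 1 NanogWT only region of 15 tags. Histone, zinc finger and receptor genes can have near-identical copies, between which reads can be misplaced. The authors dropped repetitive and low-quality alignments, and how well reads map at these genes was not measured, so these values are uncertain.

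The sequence under H3K27ac-only summits was examined in windows of 150 bp either side. The median GC content was 49.8% in NanogWT only, 50.2% in NanogBiD only and 53.5% in common regions, against 48.5%, 47.2% and 53.8% in the other regions of each class. Windows masked as repeats over more than 50% of their length made up 7.28% (5.79 to 9.11) of NanogWT only, 7.70% (6.04 to 9.77) of NanogBiD only and 5.70% (3.49 to 9.20) of common regions. Among the others these were 6.20%, 4.71% and 2.53%, so the shares were higher by 2.997 points (1.30 to 5.09) in NanogBiD only and by 3.17 points (0.95 to 6.67) in common regions, while the difference of 1.07 points in NanogWT only regions had an interval from -0.54 to 2.99.

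AP-1, the dimer of FOS and JUN proteins, is prominent at fibroblast enhancers. An AP-1 match was found at 15.9% (13.7 to 18.4) of NanogWT only summits, 13.6% (11.4 to 16.2) of NanogBiD only and 12.5% (9.08 to 17.1) of common ones. Among other H3K27ac regions these shares were 19.8%, 22.0% and 18.3%, and over all windows 2 kb downstream of the H3K27ac-only summits 9.09% (7.91 to 10.4). In arm-specific regions the motif was thus more frequent at the summit than 2 kb away, 8.98% and 7.83%, but less so than at regions with partners, with differences of -3.83 points in NanogWT only (-6.24 to -1.18) and -8.35 points in NanogBiD only (-10.67 to -5.69). In common regions the summit and the window 2 kb away had 12.5% and 13.3%. Away from promoters the values were 15.96% (14.2 to 17.9) in H3K27ac-only and 25.1% (24.6 to 25.6) in other regions, and at promoters 10.8% and 10.2%. Within heights of 11 or 12 tags they were 14.8% (12.1 to 17.9) and 20.7% (19.8 to 21.6).

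The OCT octamer, bound by OCT4 and its relatives, was found at 30 of 2003 summits (1.498%, 1.05 to 2.13), against 3.21% of other H3K27ac regions and 2.55% (1.94 to 3.33) of the windows 2 kb away. By class the shares were 1.27% in NanogWT only, 2.02% in NanogBiD only and 0.760% in common regions. The difference from the other regions was widest in NanogBiD only, where 4.71% of other regions held an octamer, a difference of -2.68 points (-3.54 to -1.402). The windows of this class also differed in median GC content, 50.2% against 47.2%, and the octamer was not compared at like GC content. For NanogWT only the difference of -0.73 points had an interval that includes 0.

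SP/KLF matches, typical of CpG-rich promoters, were found at 21.7% (17.1 to 27.04) of common H3K27ac-only summits, against 32.8% of other common ones, a difference of -11.1 points (-15.7 to -5.71). At common promoters alone the shares were 33.6% (26.2 to 41.8) and 56.2% (55.4 to 57.0). In arm-specific regions the values lay close together, 7.91% and 7.62% in NanogWT only and 9.60% and 9.97% in NanogBiD only. RUNX matches were at 5.27% of NanogWT only summits against 8.17%, a difference of -2.89 points (-4.33 to -1.15). NFY matches were at 27.5% of NanogBiD only summits against 32.0%, a difference of -4.45 points (-7.55 to -1.14). Both motifs were more frequent 2 kb downstream of these H3K27ac-only summits, RUNX at 7.92% with overlapping intervals and NFY at 34.97%. The other NanogBiD only regions also had more NFY matches there, 35.9%. SP/KLF in common H3K27ac-only regions went the other way, with 4.56% there. In all, 13 motifs were compared in each class, and the intervals were not adjusted for that number. For SOX, TEAD, ETS, E-box, CRE, NRF1, CTCF and the CA repeat, the interval of the difference included 0 in each class. CTCF matches were at 22 of 2003 summits (1.10%) against 1.32%. AP-1 matches contain no other motif searched here, and a match is a stretch of letters and not a bound site.

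**Figure D4:**
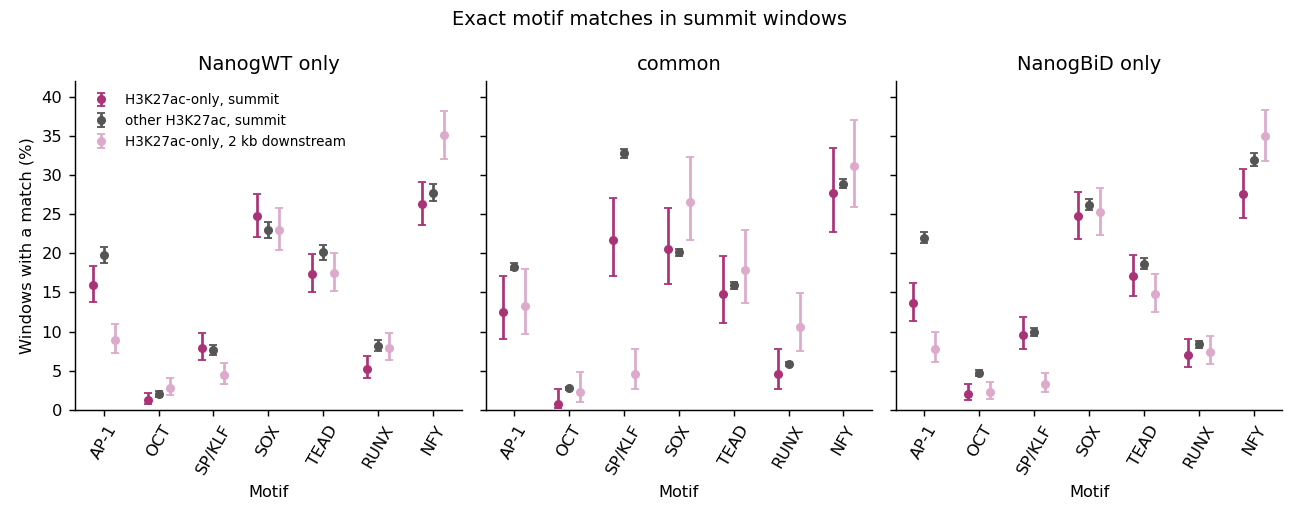
Share of windows of 150 bp either side (%, vertical axis) with an exact match to each motif (horizontal axis), at H3K27ac-only summits, at other H3K27ac summits and 2 kb downstream of H3K27ac-only summits, with 95% Wilson intervals as bars. AP-1 lies below the other H3K27ac regions in each class, for example at 13.6% against 22.0% in NanogBiD only, and SP/KLF does so in common regions, at 21.7% against 32.8%.

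H3K27ac-only regions were more frequent on the X chromosome. There 82 of 873 H3K27ac regions were H3K27ac-only, 9.39% (7.63 to 11.5), against 1920 of 48650 on the autosomes, 3.95% (3.78 to 4.12), a difference of 5.45 points (3.68 to 7.57). Single autosomes ranged from 3.14% (chromosomes 14 and 19) to 4.66% (chromosome 8). The X share was greater in each class: 22.2% against 12.98% in NanogWT only, 16.8% against 5.33% in NanogBiD only and 3.69% against 0.884% in common regions. By height it was greater up to 15 tags, with 23.4% against 10.9% at 10 tags or fewer, 17.3% against 6.85% at 11 or 12 tags, and 7.5% against 4.03% at 13 to 15 tags, where the difference was 3.47 points (0.28 to 8.63). Above this the interval of the difference included 0, with 2.15% against 2.10% at 16 to 20 tags and 1.37% against 0.485% over 20 tags (-0.027 to 3.47 points).

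The partners themselves differed on X. Of X-linked H3K27ac regions 53.6% (50.3 to 56.9) held an H3K4me1 peak of either arm, against 82.3% on the autosomes, while FLAG was at 81.9% against 85.7% and BRG1 at 75.3% against 77.5%. Of all peaks in the lists, X held 0.854% in the H3K4me1 list of NanogWT and 0.868% in that of NanogBiD, against 1.76% to 2.16% in the other 6 lists. What part the scarcity of H3K4me1 peaks had in the X share was not tested. Without chromosome X, an alternative added after the data had been seen, 1924 regions remained, with 48.0% in NanogWT only and 39.3% in NanogBiD only.

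**Figure D5:**
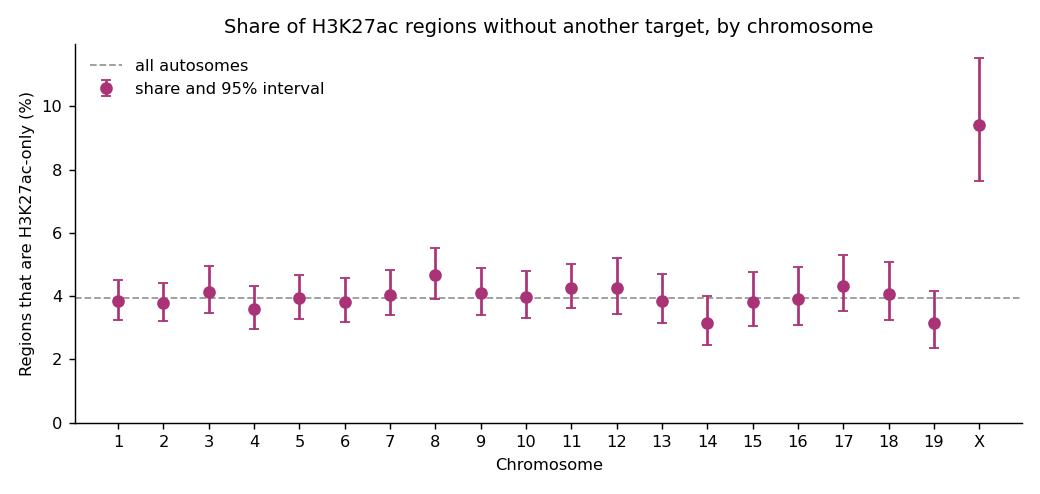
Share of H3K27ac regions that are H3K27ac-only (%, vertical axis) on each chromosome (horizontal axis), with 95% Wilson intervals as bars and the autosomal share as a dashed line; Y and unplaced sequences are not drawn. X stands at 9.39%, above the autosomes, which range from 3.14% to 4.66%.

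X-linked H3K27ac-only regions were at promoters in 42 of 82 cases (51.2%, 40.6 to 61.7), close to the 52.0% of other X regions, whereas on the autosomes the shares were 25.7% and 36.9%. Besides Tceal1, Rtl8c and Chm, the common X regions, named after their values were seen, included the start sites of Gria3, an AMPA receptor subunit, with 21 tags in NanogWT and 18 in NanogBiD, and Trpc5, a cation channel, with 20 and 13. Cox7b, a subunit of cytochrome c oxidase, had 17 and 14 tags, Zmym3, a zinc finger protein of chromatin, 17 and 10, and the corepressor gene Bcor 13 and 11. The translation termination factor gene Gspt2 had 8 tags in NanogWT and 14 in NanogBiD, Rtl8c 12 and 20, and Chm 14 and 21. Of the 15 common X regions at protein-coding promoters, 7 were higher in NanogWT, 6 higher in NanogBiD and 2 equal. The regions of Gspt2, Rtl8c and Chm lay between 30.3 and 61.3 kb from any peak of another target.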

How the data were processed

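CUT&Tag was performed by the authors on MEFs at day 5 of reprogramming, with 4 targets in 2 arms and 1 list per group. Per the study's methods and the submitters' processing notes, the authors trimmed reads with Trim Galore 0.6.4, mapped them to mm10 with Bowtie2 2.4.5, and used SAMtools 1.16.1 to drop mitochondrial, repetitive and low-quality alignments. Replicates were merged and peaks called with MACS 1.4.2, with duplicates reduced to 1 tag, and without a model of fragment size, and no control library is named. The study's reporting summary states a general minimum number of replicates for all experiments, but how many replicates each list holds is not given in the sources used here. The authors deposited for each library a peak list, whose score is the peak caller's significance, and a summit list, whose signal is the tag pileup, called height. Neither is scaled to depth, which is unknown. A deeper library gives more peaks, and weak peaks near the calling limit may be missed in the other arm or for a partner, so the absence of a peak is not the absence of the target.

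Peaks and summits were joined by name. The height and score of a region are the highest of its peaks. Regions were compared with Python 3.11.15, pandas 2.3.3, SciPy 1.17.1 and pysam 0.24.0. Start sites, genes and biotypes came from GENCODE M21, and sequence from the GRCm38 (mm10) reference, where lower case marks repeats. Motif matches were exact. Only chromosomes 1 to 19, X and Y were used for sequence. Shares have Wilson 95% intervals and their differences Newcombe intervals. With 1 library per group no test between arms was made, and no p-value is given across regions. Regions named are the 4 highest of each class (common regions by the lower arm), the 5 highest with a protein-coding start site inside (common regions by the higher arm), and every listed gene with a region within 2 kb of a start site. For the sequences, 1 region of the highest score in each class was added after the values were seen, leaving out windows over a UTR or on chromosome 18. The members, gene lists and tests were chosen with earlier results of these data known. Merging, classes and distances were tested on simulated data. The alternatives are named with their values in the closing section. A height of at least 12 tags and leaving out chromosome X were added after the data had been seen.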

Additional observations from a re-analysis of the deposited data

How the results depend on the processing

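No paired analysis was possible because the labels carry no replicate numbers and replicates had been merged. Of the values recomputed under the alternatives, 32 stayed within the interval of the main value, or within 1.5 times of a count, and 26 did not, beside 13 motif shares that all fell in shorter windows. Using standard chromosomes only, or leaving out chromosome X, took none of the 6 values recomputed there outside its interval.

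With a score of at least 100 for H3K27ac alone, 183 regions were left, 0.643% of H3K27ac regions, with 26.8% in NanogBiD only and 51.4% at promoters. With this limit for every list, the share rose to 6.17% (1756 regions), with 26.1% in NanogBiD only, 36.3% in NanogWT only and 50.7% at promoters. In this setting common regions, 659, were the most numerous class. With the 30000 highest-scoring peaks of each H3K27ac list, 662 regions were left (1.77%), with 13.3% in NanogBiD only, 71.6% in NanogWT only and 34.0% at promoters. At 12 tags or more, 906 were left (2.35%), with 34.4% in NanogBiD only, 49.6% in NanogWT only and 32.2% at promoters. Partners of the same arm only gave 5.63%, with 48.2% in NanogBiD only and 42.3% in NanogWT only, the only setting run that turned the order of these classes. The share of H3K27ac regions was 2.98% with no partner within 1 kb and 3.78% with merging across 500 bp. Promoters of 1 kb held 21.5%. Scores in place of heights gave a median log2 ratio of -0.037 at common regions, against 0.00. In windows of 50 bp, 10.1% were masked over more than 50%, against 7.24%, and AP-1 matches were at 5.14%, against 7.59% of other regions. The cause of these shifts was not tested. Depth is unknown and 952 of 2006 regions (47.5%) scored under 60, so which of them would gain a partner in deeper libraries cannot be said from these lists.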

Other observations

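Small RNA genes were nearest to the arm-specific regions that came next by score after those near Dpp6 and 1700041C23Rik. In NanogWT only, a region 0.607 kb from the start site of the snoRNA gene Gm25232 had 20 tags and a score of 159. In NanogBiD only, a region 0.159 kb from that of the microRNA gene Gm25033 had 13 tags and a score of 144. X-linked regions followed in each class. In NanogWT only, a region 7.02 kb from the start site of Gm364 had 13 tags and a score of 150.4, and in NanogBiD only a region covered the start site of Rnf128, a ubiquitin ligase gene, with 13 tags and a score of 141, 67.9 kb from any peak of another target.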
